A study of Rattus norvegicus with 6 samples.

Results

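The galectin family around the silenced galectin-3 (GAL3) was followed in spinal cord neurons cultured from newborn Sprague-Dawley rats. Its members were 6 genes taken by symbol from the 17648 genes of the expression matrix. They were the galectins LGALS1, LGALS3 (which encodes GAL3), LGALS8 and LGALS9, the galectin-like gene LGALSL, and LGALS3BP, which encodes the galectin-3 binding protein. All 6 were listed and all 6 had a mean of at least 1, the level required for testing. RNA was sequenced from 3 libraries transfected with a control small interfering RNA (Glu + siR-Con) and 3 transfected with an siRNA against GAL3 (Glu + siR-GAL3), after 3 days of culture. According to the methods of the study, neurons of both groups were exposed to 10 μM glutamate for 1 h and kept without it for 16 h. The sample labels instead name saline for the siR-Con libraries and a GAL3 knockout for the others. Their source names and matrix columns, however, begin with Glu in both groups. If the saline label holds, a difference in glutamate between the groups cannot be told apart from the silencing. Ara-C, which kills dividing cells, was added to all cultures to enrich for neurons. There was a single siRNA against GAL3, and the labels do not say whether the replicates came from separate cultures. The methods speak of independent repeats for all data of the study without naming these libraries, so p-values may measure technical spread only. Values of a group are given below in the order of replicates 1, 2 and 3, with the siR-Con libraries called controls.

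Galectins are lectins that bind β-galactosides on glycoproteins and glycolipids. Galectin-1 works as a dimer of a single binding domain, galectin-3 carries its domain on a flexible tail through which it self-associates, and galectin-8 and galectin-9 join a pair of domains in one chain. When the membrane of an endosome or lysosome breaks, the glycans of its inner face meet the cytosol, where galectin-3, galectin-8 and galectin-9 collect on them and call in repair or autophagy. In nervous tissue galectin-3 is best known as a product of activated microglia and macrophages, and LGALS9 and LGALS3BP are known interferon-induced genes.

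The values were derived from FPKM, which is scaled per transcript length, so levels of different genes can be set side by side. The authors corrected them further, and 3.86% of all values lay below 0. The column totals were nearly equal, at 64313 to 64714, and the depth of each library is unknown. Identical values tie control 1 to siR-GAL3 replicate 1, and controls 2 and 3 to siR-GAL3 replicate 3 (1312 to 1463 shared values per pair within these library sets, 238 to 264 between sets). siR-GAL3 replicate 2 belonged to neither set and stood apart on the first principal component. The label of the cells was checked against markers. Neuron markers summed to between 41.6 and 47.5 in the 6 libraries over 11 genes, and RBFOX3, the gene of the neuronal marker NeuN, lay between 0.300 and 0.429. Astrocyte markers summed to between 920 and 1189 over 10 genes, with GFAP alone between 515 and 758. Oligodendrocyte lineage markers summed to between 1076 and 1409 over 11 genes. Those of microglia and macrophages summed to between 153 and 221 over 16 genes. Glial RNA was thus abundant in these libraries, and in such bulk RNA fewer cells of a type and less RNA per cell cannot be told apart.

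LGALS3 was the most abundant galectin of the Glu + siR-Con libraries, at 77.4, 54.4 and 62.4, which placed its mean over all libraries at the 99.0th percentile of all genes. After silencing it was listed at -1.64, 32.3 and 18.5. The groups did not overlap, but the targeted gene differed widely among the siR-GAL3 libraries, with replicate 2 keeping the most. In limma on log2(value + 1), with values below 0 set to 0, its log2 fold change was -2.91 (95% interval -5.75 to -0.07, unadjusted p = 0.0462, adjusted p = 0.571). The library with the value below 0 weighed on this estimate, which was -1.35 when that library was left out. The difference in LGALS3 was -79.1 units inside the first library set and -39.9 inside the second.

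LGALS3BP encodes a secreted, heavily glycosylated scavenger receptor cysteine-rich protein that binds galectin-3 and galectin-1. Its level was 3.03, 0.0164 and 0.00757 in the controls, against 8.92, 5.54 and 8.09 after silencing. Every siR-GAL3 library lay above every siR-Con library, and among the controls only replicate 1 had an appreciable level. The group means were 1.02 ± 1.74 and 7.52 ± 1.76 (SD, n = 3 each). The log2 fold change was 2.39 (95% interval 1.14 to 3.63, unadjusted p = 0.00276, adjusted p = 0.247 in limma). The difference was 5.89 units within the first library set and 8.08 within the second. With single libraries left out the adjusted p ran from 0.00765, without control 1 (log2 fold change 3.05), to 0.874, without control 3 (2.05). With a pseudocount of 0.1 in place of 1 the log2 fold change was 4.46.

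LGALS9 encodes galectin-9, a tandem-repeat galectin that binds the immune receptor TIM-3. In the controls it was 1.18, -0.306 and -0.493, the last 2 of them below 0. After silencing it was 4.77, 2.12 and 2.62, above each control. The group means were 0.128 ± 0.919 and 3.17 ± 1.41 (SD, n = 3 each). Its log2 fold change of 1.63 (95% interval 0.80 to 2.47, unadjusted p = 0.00248, adjusted p = 0.232 in limma) rests on the 2 controls held at 0. It was 0.88 with values below 0 treated as missing (unadjusted p = 0.0530 in limma) and 3.72 with a pseudocount of 0.1. Within the library sets LGALS9 was higher in siR-GAL3 by 3.59 and 3.02 units. With single libraries left out the adjusted p ran from 0.0466, without the second siR-GAL3 library (log2 fold change 1.82), to 0.874, without control 3 (1.45).

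**Figure D1:**
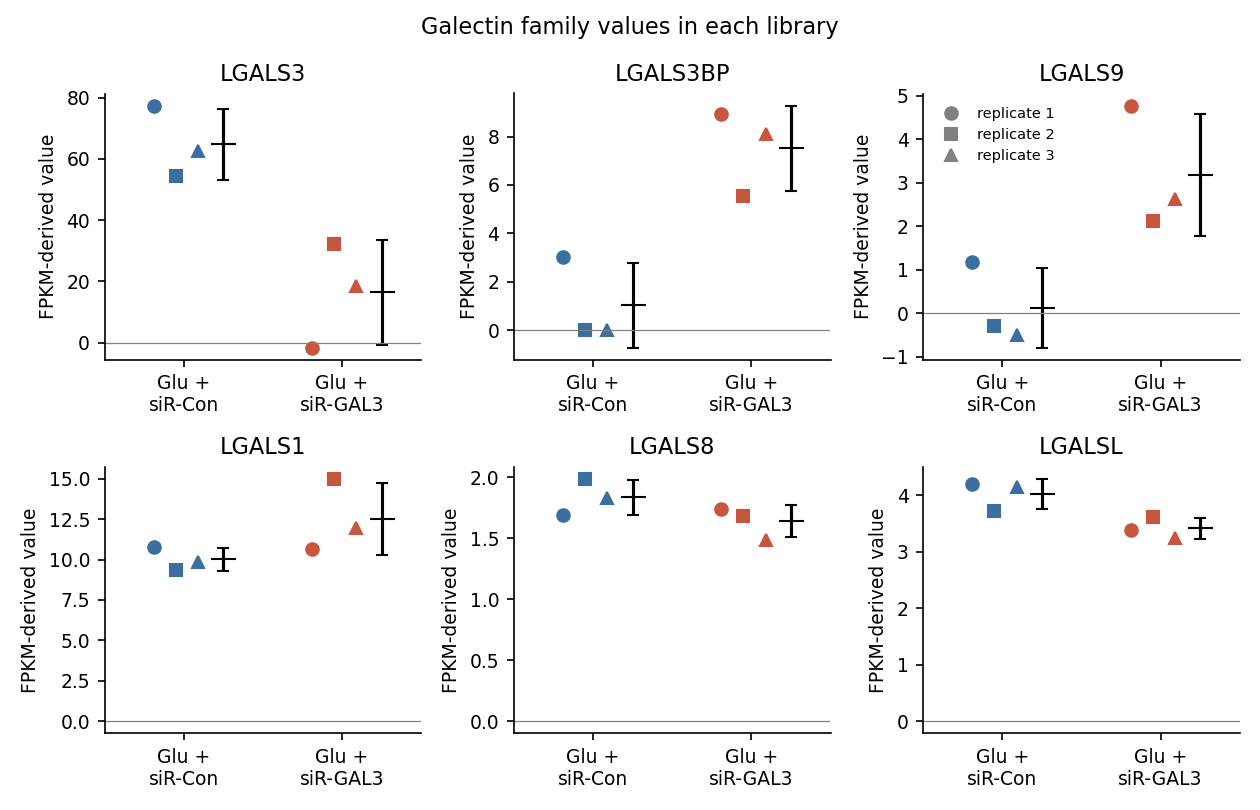
FPKM-derived value of each of the 6 genes (vertical axis, a scale of its own per panel) in the 3 Glu + siR-Con and 3 Glu + siR-GAL3 libraries, with marker shape for the replicate number and bars for mean ± SD. LGALS3 lay lower and LGALS3BP and LGALS9 higher in every siR-GAL3 library, LGALSL lay lower by a small margin, and the groups overlapped for LGALS1 and LGALS8.

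LGALS3BP and LGALS9, the members with higher values in siR-GAL3, are shown here with the promoter sequence that RefSeq gives for each on assembly GRCr8 (250 bases before the start of the gene and 50 after it, both on the minus strand). Of the 6 members, 3 had an entry, LGALS3BP, LGALS8 and LGALS9. The assembly of the expression matrix is not given in the sources used here, and the promoters were matched by symbol. Capitals mark the core of the interferon-stimulated response element, GAAA repeated after any 2 bases, searched on both strands. The motif was chosen after the values of these genes had been seen.
LGALS3BP, chr10:104127799-104128098: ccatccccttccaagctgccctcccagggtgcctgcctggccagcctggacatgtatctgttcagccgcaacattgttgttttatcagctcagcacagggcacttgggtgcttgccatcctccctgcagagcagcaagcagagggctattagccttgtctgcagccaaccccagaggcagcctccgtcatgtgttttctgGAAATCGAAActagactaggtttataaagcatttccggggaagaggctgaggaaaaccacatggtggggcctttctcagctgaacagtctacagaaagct
LGALS9, chr10:64428021-64428320: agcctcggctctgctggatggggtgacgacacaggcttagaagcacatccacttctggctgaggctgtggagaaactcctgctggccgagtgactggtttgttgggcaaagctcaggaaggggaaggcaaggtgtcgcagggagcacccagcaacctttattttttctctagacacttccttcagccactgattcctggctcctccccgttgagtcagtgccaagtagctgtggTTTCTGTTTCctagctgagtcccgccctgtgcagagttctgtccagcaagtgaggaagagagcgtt

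The core lay 50 to 41 bases before the start of LGALS3BP and, on the opposite strand, 16 to 7 bases before the start of LGALS9. It was absent from the LGALS8 window. Of 27457 promoters of this length, 3.77% held it, and of the 17 interferon-stimulated genes of the list used below that had a promoter entry, 13 did, IFI27, BST2 and IFITM3 among them. The STAT dimer site TTCNNNGAA, found in 8.68% of promoters, was in none of the 3 member windows, and the E-box CACGTG, found in 6.65%, was in that of LGALS8. These matches describe the letters of the windows and were not tested for binding.

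The LGALS9 promoter has a close copy at LGALS5, the gene of a rat galectin related to galectin-9. Over 231 aligned bases the 2 windows were 96.5% identical, with a longest identical run of 82 bases, and the response element core was in both. LGALS5 itself was barely listed, at 0.0107, -0.00229 and 0.0156 in the controls, against 0.0710, 0.0477 and 0.0121 after silencing. How reads shared by such close genes were counted is not stated, so the split between LGALS9 and LGALS5 is uncertain.

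LGALS1 encodes galectin-1, which is made by astrocytes and fibroblasts as well as by some neurons. It was 10.8, 9.36 and 9.87 in the controls, against 10.6, 15.0 and 11.9 after silencing. The groups overlapped through siR-GAL3 replicate 1, and the highest value was that of siR-GAL3 replicate 2, the library that stood apart. The log2 fold change was 0.29 (95% interval -0.01 to 0.58, unadjusted p = 0.0564, adjusted p = 0.577 in limma), and leaving that library out gave 0.16. The difference in LGALS1 was -0.162 units inside the first library set and 2.32 inside the second.

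LGALS8 encodes galectin-8, which binds the autophagy receptor NDP52 on broken vesicles. It was 1.69, 1.98 and 1.83 in the controls, against 1.74, 1.68 and 1.49 after silencing. The groups overlapped, with group means of 1.83 ± 0.147 and 1.64 ± 0.132 (SD, n = 3 each). The log2 fold change was -0.10 (95% interval -0.27 to 0.06, unadjusted p = 0.189 in limma).

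LGALSL encodes a galectin-related protein that lacks the usual lactose binding. It was 4.20, 3.72 and 4.14 in the controls, against 3.39, 3.60 and 3.24 after silencing. Each siR-GAL3 library lay below each control, with control 2 and the second siR-GAL3 library close together. The log2 fold change was -0.19 (95% interval -0.36 to -0.02, unadjusted p = 0.0352, adjusted p = 0.535 in limma). The difference was -0.816 units within the first library set and -0.689 within the second.

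No member had a Benjamini-Hochberg adjusted p under 0.05 in limma, nor did any of the 8495 genes tested (0% called), of which 736 had an unadjusted p under 0.05. At that unadjusted level there were 4 of the 6 members, LGALS3BP and LGALS9 higher and LGALS3 and LGALSL lower, against 8.66% of all genes tested. The thresholds of the study stand in its methods on public data sets, with no base stated for the logarithm. Its sequencing supplement names the DESeq package and an adjusted p under 0.05. Those of the methods were applied here as a log2 fold change beyond 1 in either direction with an unadjusted p under 0.05. They were met by 3 of the 6, against 0.318% of all genes tested. LGALS3BP and LGALS9 met them upward (0.259% of all genes tested) and LGALS3 downward (0.0589%). LGALS9, with a control mean of 0.128, reached the mean of 1 required for testing only through the siR-GAL3 libraries, so its count among the members that passed is a description. For 4 of the 6 the groups did not overlap, against 20.5% of all genes tested, 2 of them higher (10.3% of all genes tested) and 2 lower (10.3%). LGALS3 was the target of the siRNA and is counted here as a check of the labels. The exact permutation test gave a two-sided p of 0.1, the smallest that 3 against 3 libraries allow, for LGALS3, LGALS3BP, LGALS9 and LGALSL, and 0.2 for LGALS1 and LGALS8.

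**Figure D2:**
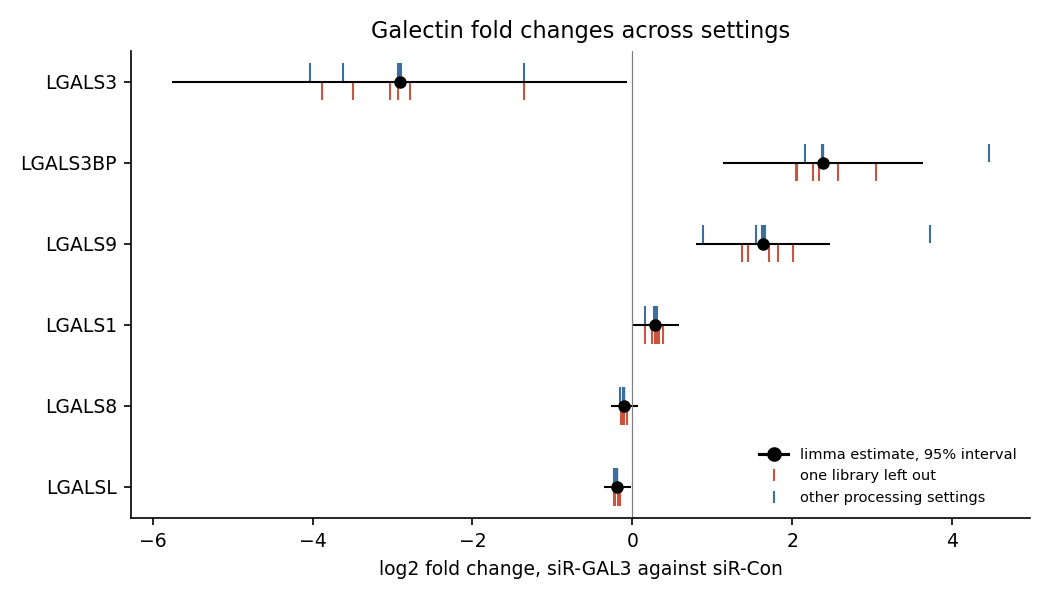
Log2 fold change of siR-GAL3 against siR-Con (horizontal axis) for the 6 genes, with the limma estimate and its 95% interval in black, fits without one library as red ticks and the other processing settings on the log2 scale as blue ticks. All ticks of a gene lie on one side of 0, and those of LGALS3, LGALS3BP and LGALS9 spread over more than 1 log2 unit while those of LGALS8 and LGALSL lie close together.

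The order of the galectin levels differed between the groups. In the siR-Con libraries LGALS3 came first, then LGALS1, LGALSL and LGALS8, each above the next in all 3 libraries, and LGALS9 was last. In siR-GAL3 the values of LGALS3 and LGALS1 overlapped, as did those of LGALSL and LGALS9, while LGALS8 lay below LGALS1, LGALSL, LGALS9 and LGALS3BP in each library. LGALS3BP, below LGALSL in each control, lay above it in each siR-GAL3 library. LGALS3 took 79.8% ± 1.46 (SD, n = 3) of the summed galectin level in siR-Con and 36.0% ± 31.6 in siR-GAL3, with values below 0 at 0, and the share of LGALS1 was 12.5% ± 1.07 and 36.9% ± 13.1. The difference in the share of LGALS3 was -43.8 percentage points, and -25.8 without the first siR-GAL3 library, in which LGALS3 was set to 0. The sum of the galectins other than LGALS3 was 17.9, 15.1 and 15.8 in the controls, against 20.5, 22.4 and 19.3 after silencing. Those sums did not overlap, but their means differed by 4.48 units, against a difference of -48.4 units in LGALS3.

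**Figure D3:**
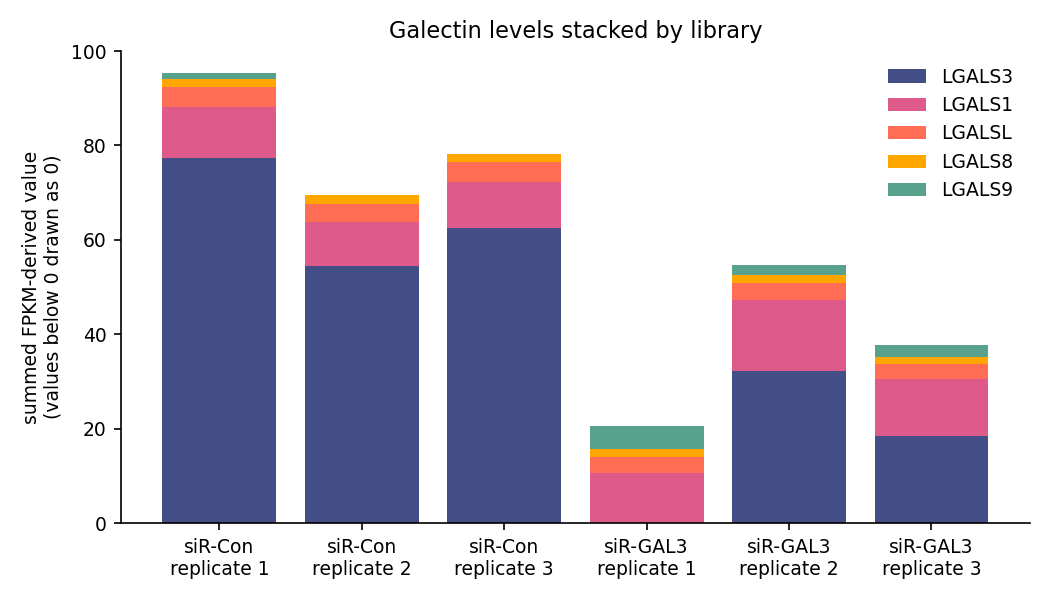
Summed FPKM-derived value of the 5 galectins in each library (vertical axis, linear from 0), stacked by gene, with values below 0 drawn as 0. LGALS3 makes up most of each siR-Con bar, is drawn as 0 in siR-GAL3 replicate 1 and is the larger part of the bar in siR-GAL3 replicate 2, while the parts above it sum to between 15.1 and 22.4.

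Within the Glu + siR-GAL3 group, the library with the least LGALS3, replicate 1, had the most LGALS9 and LGALS3BP, and the library with the most LGALS3, replicate 2, had the least of both. The siR-Con libraries did not follow this order, since replicate 1, with the most LGALS3, also had the most LGALS9 and LGALS3BP. Over the 6 libraries on log2(value + 1), Pearson's r was 0.978 between LGALS9 and LGALS3BP, -0.773 between LGALS3 and LGALS9, and -0.631 between LGALS3 and LGALS3BP. These are descriptions over libraries that share their group and their library set.

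**Figure D4:**
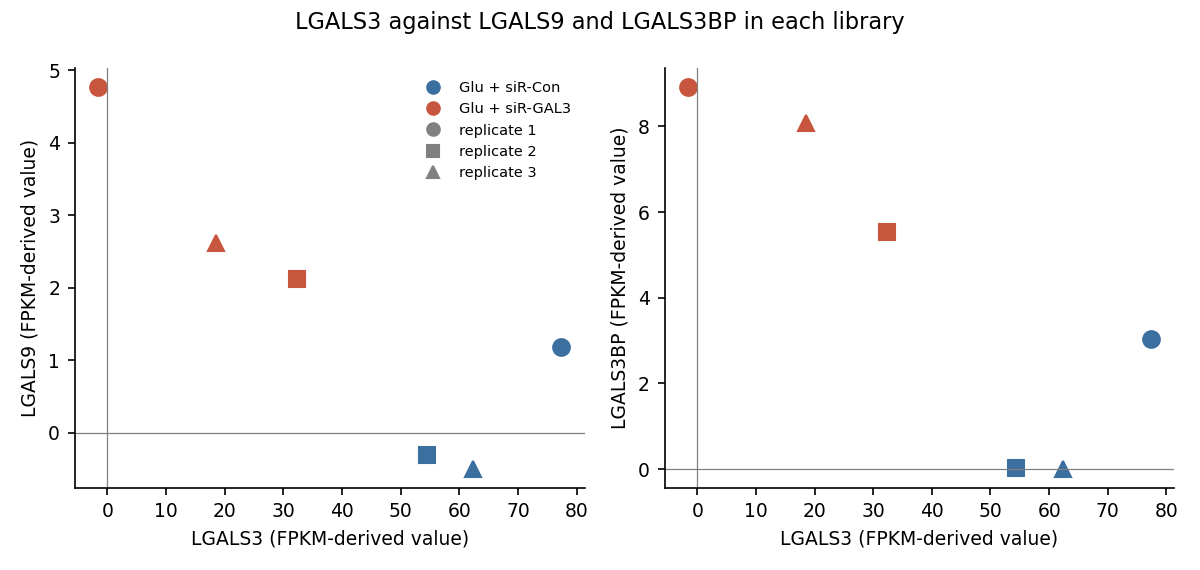
LGALS9 (left) and LGALS3BP (right) against LGALS3 in the 6 libraries, all as FPKM-derived values, with colour for the group and shape for the replicate number. The 3 siR-GAL3 points fall from upper left to lower right, and among the siR-Con points replicate 1 is highest on both axes.

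By the same measure, the genes most like each member were sought among the 2599 or 2600 others whose mean reached 5. For LGALS3 they were CA14, a carbonic anhydrase (r = 0.959), the channel gene PANX1 (r = 0.946) and the tubulin gene TUBB4B (r = 0.938). CA14 was 18.7, 22.5 and 19.9 in the controls, against 6.31, 15.7 and 11.6 after silencing. Its order was that of LGALS3 in siR-GAL3 and the reverse of it in the controls. For LGALS3BP they were NXN (r = 0.987), the lysozyme gene LYZ2 (r = 0.982) and the lipocalin gene LCN2 (r = 0.981), and for LGALS9 they were IFI27 (r = 0.979), SMIM14 (r = 0.973) and B2M (r = 0.972), of which B2M encodes the light chain of MHC class I. LGALS1 had 312 genes with r over 0.9, more than any other member, led by PTMS (r = 0.992), KDELR1 (r = 0.990) and EIF6 (r = 0.986). Its highest value was in siR-GAL3 replicate 2, the library that stood apart, and a single such library can weigh heavily on r. LGALS8 was closest to PLD3, RAB1A and LOC680875, and LGALSL to RGD1310352, SLC35A4 and RNF11L1, with r between 0.949 and 0.986.

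Interferon-stimulated genes lay higher in siR-GAL3, as did LGALS9 and LGALS3BP. Of 25 on the list 8 could be tested, and all 8 were higher in siR-GAL3 with an unadjusted p under 0.05 in limma, against 4.41% of all genes tested, while none had an adjusted p under 0.05. Their median log2 fold change was 0.74, against 0.00 over all genes tested. The list was chosen with earlier results of these data known, so its counts are descriptions. These figures cover the genes that passed the filter on the mean of all libraries, which BST2 (control mean 0.340) passed only through siR-GAL3. IFI27, named above as the gene most like LGALS9, was 3.53, 1.25 and 1.46 in the controls, against 14.1, 8.75 and 11.9 after silencing. Its order of the siR-GAL3 libraries was that of LGALS9 and LGALS3BP, which BST2, MX2 and IFITM3 did not share. BST2, which tethers virus particles to the cell surface, MX2 and IFITM3 had log2 fold changes of 2.41, 1.87 and 0.80. Controls 2 and 3 were below 0 for BST2, as for LGALS9. The remaining 17 genes of the list, ISG15, MX1 and IFIT1 among them, had means under 1. The part of interferon in the galectin differences was not tested.

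Markers of microglia and macrophages were for the most part higher in siR-GAL3, the group with less LGALS3. Of 16 markers 15 could be tested, 14 with a log2 fold change above 0 and 8 of these with an unadjusted p under 0.05, against 4.41% of all genes tested. Their summed level was 153 to 163 in siR-Con and 197 to 221 in siR-GAL3, and none had an adjusted p under 0.05 in limma. The lysosomal protein gene CD68 had a log2 fold change of 0.54 and AIF1 of 0.57. Within siR-GAL3, AIF1 was highest and CD68 lowest in replicate 2, which kept the most LGALS3. LYZ2, below 0 in controls 2 and 3 and past the filter only through siR-GAL3, met the study criteria at 3.41. It was 15.1 in control 1, against 24.5, 22.6 and 30.9 after silencing. The summed level holds values below 0 at 0, so LYZ2 weighed on its difference. The microglia-defining receptor genes CX3CR1 and P2RY12 had log2 fold changes of 0.02 each (unadjusted p = 0.939 and 0.830 in limma), and TMEM119 had a mean under 1. The part of these cells in the galectin differences was not tested.

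Genes of other cell types also differed beside the galectins. Of the 10 astrocyte markers, 8 were lower in siR-GAL3, 4 of them at an unadjusted p under 0.05 in limma (against 4.25% of all genes tested). Among these was the glutamate transporter gene SLC1A2, with a log2 fold change of -0.45 and overlapping groups. The summed level of the astrocyte markers was 1067 to 1189 in siR-Con and 920 to 981 in siR-GAL3. GFAP, with group means of 655 and 524, weighed most on that sum. Of 6 fibroblast and mural markers tested 5 were lower, 3 at that level, with COL3A1 at -0.50 and COL1A1 at -0.42, and the list summed to 48.6 to 55.4 in siR-Con and 35.7 to 43.8 in siR-GAL3. The 7 neuron markers tested had a median of 0.04, with 1 at an unadjusted p under 0.05, against 8.66% of all genes tested. It was STMN2 at 0.33, which with a control mean of 0.822 passed the filter only through siR-GAL3. The 10 oligodendrocyte lineage markers tested had a median of 0.12, which was 0.03 without siR-GAL3 replicate 3 and 0.08 without control 1, and none at that level, and all 6 endothelial markers listed had means under 1. Their part in the galectin values was not tested.

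The partners of the galectins showed small differences. Of 14 counter-receptors tested, 1 was higher and 3 were lower in siR-GAL3 at an unadjusted p under 0.05, against 4.41% and 4.25% of all genes tested. The median log2 fold change was -0.12, and -0.03 without siR-GAL3 replicate 2. The higher one was PTPRC, which encodes the galectin-1 ligand CD45 of blood-derived and microglial cells, at 0.43. The lower ones were LAMP1, the lysosomal glycoprotein ligand of galectin-3 (-0.29), NRP1, a galectin-1 receptor (-0.26), and PDPN, a galectin-8 ligand (-0.16). HAVCR2, which encodes the galectin-9 receptor TIM-3, had a mean under 1 and was not tested. It was chosen here after its values were seen, at 0.672, 0.659 and 0.654 in the controls, against 1.19, 1.00 and 1.21 after silencing, and its groups did not overlap.

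Of 16 genes tested that act with galectins at damaged lysosomes, none had an unadjusted p under 0.05, against 8.66% of all genes tested. Log2 fold changes were above 0 for 10 and below for 6. The autophagy receptor gene SQSTM1, at -0.17 (unadjusted p = 0.0525), and the transferrin receptor gene TFRC, at -0.16 (unadjusted p = 0.0600 in limma), had the smallest p. TRIM16, whose product works with galectin-3 in the removal of damaged lysosomes, had a mean under 1. Of 20 enzymes that build or trim galectin ligands, 1 had an unadjusted p under 0.05, against that share of 8.66%. It was the sialyltransferase gene ST3GAL2, with a log2 fold change of -0.18. The branching enzyme MGAT2 and the galactosyltransferase B4GALT6 had log2 fold changes of 0.19 and -0.13 and did not reach that unadjusted p. The median log2 fold change was 0.02 in each of these lists.

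**Figure D5:**
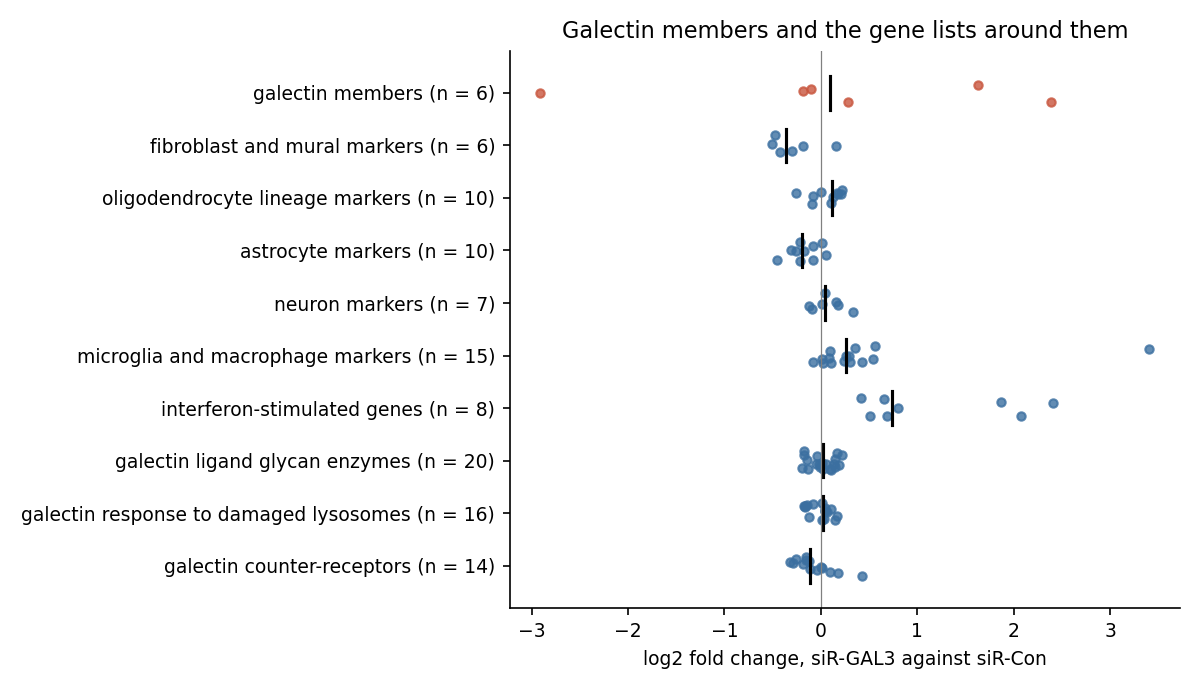
Log2 fold change of siR-GAL3 against siR-Con (horizontal axis) for each gene tested, 1 row per list, with the 6 galectin members in red, the other lists in blue and black bars for the medians (vertical scatter within a row has no meaning). The members span from -2.91 to 2.39, all 8 interferon-stimulated genes lie above 0, and the lists of counter-receptors, glycan enzymes and damaged-lysosome genes lie close to 0.

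The remaining galectins of the matrix, LGALS2, LGALS4, LGALS5, LGALS7, LGALS12 and the lens galectin GRIFIN, summed to between 0.0550 and 0.172 per library with values below 0 at 0. None had a mean of 1 and none was tested, and their highest single value was 0.0710, that of LGALS5 in the first siR-GAL3 library.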

How the data were processed

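RNA sequencing of 6 libraries (3 siR-Con, 3 siR-GAL3) was analysed. According to the methods and their supplement, the authors aligned reads with STAR, counted them with HTSeq and estimated FPKM. Batch removal, standardization and a correction of differences within groups followed. The last of these may have narrowed the spread within groups on which the SDs, p-values and overlaps rest, and its effect was not tested. The deposited matrix holds these FPKM-derived values on a linear scale, in part below 0. Because FPKM had been planned as the unit, values below 0 were set to 0, which touched 24 genes tested. Reads cannot be recovered from them, and without a depth no counting error can be stated. The genome build is not given in the sources used here. The supplement names selection of polyadenylated RNA and the labels depletion of ribosomal RNA.

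All genes whose mean reached 1 (8495) entered a limma fit, limma 3.58.1 (R 4.3.3) with an intensity trend on log2(value + 1), a scale that understates changes of low genes, and p-values were adjusted over all of them by Benjamini-Hochberg. The fit was tested on simulated data. Exactly equal values other than 0 were counted for each pair of libraries to find the library sets. Promoters were searched in Python 3.11.15 and aligned with Biopython 1.88. The members and gene lists were chosen with earlier results of these data known. The genes to be named were all members, the other galectins and the 3 genes most correlated with each member. Up to 4 genes per list with the smallest p were added, plus any past the study criteria. The text describes a part of these. Outside this rule it also names RBFOX3, CX3CR1, P2RY12, TMEM119, HAVCR2, TRIM16, ISG15, MX1 and IFIT1. Alternatives were a pseudocount of 0.1, other filters, quantile or median-ratio scaling, no trend, values below 0 as missing, no logarithm, the replicate number or library set as a block, and each library left out.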

Additional observations from a re-analysis of the deposited data

How the results depend on the processing

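The fold changes of the 6 members kept their direction in every setting in which they were fitted, and the adjusted p stayed above 0.05 with a pseudocount of 0.1, other filters, scalings or trends, values below 0 as missing and no logarithm. With the library set as a block LGALS3BP (log2 fold change 2.37, adjusted p = 0.0430 in limma) and LGALS9 (1.66, adjusted p = 0.00394) passed. siR-GAL3 replicate 2, alone in its set, has no part in that estimate. Controls 2 and 3 of LGALS9, both in the second set, were held at 0, so they show no spread in that fit. Leaving out single libraries, the estimate for LGALS3BP lay between 2.05 and 3.05 and that of LGALS9 between 1.37 and 2.01, with passes for LGALS3BP without siR-Con replicate 1 and for LGALS9 without siR-GAL3 replicate 2. A mean of at least 10 left only LGALS3 and LGALS1 to test, and 0 members then met the study criteria and 0 had an unadjusted p under 0.05. Without one library, 2 to 4 members had an unadjusted p under 0.05, with 2 without siR-Con replicate 1 or replicate 3. A pseudocount of 0.1 gave -4.03 for LGALS3, 4.46 for LGALS3BP and 3.72 for LGALS9, and values below 0 as missing gave -1.35 for LGALS3 and 0.88 for LGALS9.

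The replicate number did not pair the libraries (correlation of deviations -0.170, -0.0699 and 0.0441 for numbers 1, 2 and 3). With the replicate block LGALS9, its controls 2 and 3 again held at 0, passed (1.63, adjusted p = 0.0120 in limma). No other member did, and 6 genes in all had an adjusted p under 0.05. No member but these changed its call.

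The median of the list of damaged-lysosome genes lay between -0.00613 and 0.0489 with each library left out in turn and that of neuron markers between -0.0253 and 0.0793, so neither has a stable direction. Over all genes, 27 met the study criteria as applied here on the log2 scale, and 5 did with a mean of at least 10. There were 316 without logarithm, trend and filter, where the threshold was 1 unit. The unadjusted p was under 0.05 for 736 genes, 121 with a mean of at least 10, 1623 and 1528 in the fits without a filter (with and without the logarithm), 1174 with the block of library sets, and 344 to 1388 without one library. The adjusted p was under 0.05 for 0 genes, for 106 with that block, and for 0 to 167 without one library, the highest without siR-GAL3 replicate 2.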

Other observations

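The response element core was also counted over all genes tested, LGALS3BP and LGALS9 included, after the values had been seen. Of 6845 genes tested with a promoter entry, 182 held it, and 34 of these (18.7%) were higher and 6 (3.3%) lower in siR-GAL3 at an unadjusted p under 0.05 in limma, against 4.35% and 3.97% of the 6845. For the STAT dimer site the shares were 4.81% higher and 3.61% lower of 416 genes, and for the E-box 2.97% and 3.56% of 674. The median log2 fold change was 0.05 for genes with the response element core and 0.002 for the 6845, so the middle of the group lay near 0. The 34 higher genes with the core include LGALS3BP and LGALS9, which prompted the search, and IFI27, BST2 and IFITM3. Of these, LGALS9 and BST2 passed the filter only through siR-GAL3. The shares are descriptions over genes that are not independent, and no test was made of them.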
